A study of Mus musculus with 5 samples.

Results

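The contacts described here lie in the domain on the 3′ side of Shh, the stretch of mouse chromosome 5 from 28317087 to 28765086 (mm9) that holds Insig1, En2, Cnpy1 and Rbm33. They are the 1480 pairs of a forward and a reverse 5C primer whose fragments both have their midpoint in this 448-kb interval and are at least 56 kb apart, out of 33306 primer pairs in each library and 31328 within the Shh region. 5C (chromosome conformation capture carbon copy) cross-links chromatin, cuts it with HindIII, ligates fragments that lay together, and counts each ligation of a forward with a reverse primer by sequencing. Every library came from CD1 mouse embryos at E11.5 and none was treated or mutant. The groups were limb buds (2 biological replicates), heads, labelled neural and cranio-facial (1 sample with 2 technical libraries, whose reads were summed), and bodies (1 library), the embryo left after limbs and heads were taken. According to the methods, limbs were collected from about 70 embryos, without saying whether for each replicate, and bodies and heads from 3 embryos each. All are mixtures of cell types, and limb buds hold both cells that transcribe Shh and cells that do not.

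Mammalian chromosomes are folded into topological domains, within which sequences touch each other more often than they touch sequences beyond the edge, and edges are often marked by sites of the insulator protein CTCF. Shh encodes the signalling molecule that patterns the limb along its anterior-posterior axis, and its distant enhancers lie on the other side of the gene, within and beyond a large gene desert. Insig1 encodes a membrane protein that restrains sterol synthesis, En2 a homeodomain factor of the midbrain and hindbrain, Cnpy1 a canopy family protein linked to FGF signalling, and Rbm33 an RNA-binding protein. The domain also holds Gm16719, a long non-coding RNA that runs away from Insig1. Insig1 lies at 28397952–28405201, En2 at 28492236–28500152, Cnpy1 at 28527359–28572332 and Rbm33 at 28643661–28745784. Insig1, En2 and Rbm33 are on the plus strand, Cnpy1 and Gm16719 on the minus strand.

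The domain was sampled by 89 HindIII fragments, 44 with a forward and 45 with a reverse primer, from 131 to 18779 bases long (median 2952). Of these, 49 overlap a gene, 27 of them Rbm33, 14 Cnpy1, and only 1 each Insig1 and En2. Total reads were 675954 and 1714491 for the limb replicates, 1056071 for body, and 1048682 and 931061 for the head libraries. The domain took 4.29% and 4.32% of them for limb, 3.72% for body, and 5.11% and 4.11% for the head libraries. Between 18.8% (body) and 52.4% (head library 2) of the 1480 primer pairs had no read, and at an equal depth of 675954 reads 1158 were read in body but 691 in head library 2. In all, 160 primer pairs were unread in every library and 473 were read in all 5. Head library 2 stood apart from head library 1, with which it shares its sample. The Spearman correlation of interaction frequencies between these technical libraries over 104 pairs of 28-kb windows was 0.71, against 0.84 to 0.90 between the 4 samples, without isolated contacts (these window pairs share primers and a decay with separation, and are not independent).

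Sequences are shown first for the fragments on which results turn. The first pair forms by far the most frequent contact of the domain, and the other fragments are examples of those that were read in only some libraries. Each line gives the 40 bases of the plus strand at an end of the fragment (mm9), with the HindIII site in capitals. Which end the primer anneals to is not given in the sources used here.
Left end of the fragment between Cnpy1 and Rbm33, chr5:28581216-28581255: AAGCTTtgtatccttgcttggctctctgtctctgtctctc
Right end of the same fragment, chr5:28585286-28585325: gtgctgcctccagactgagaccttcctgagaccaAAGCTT
Left end of the fragment in an intron of Gm16719, chr5:28347363-28347402: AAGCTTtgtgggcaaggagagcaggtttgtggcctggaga
Right end of the same fragment, chr5:28348875-28348914: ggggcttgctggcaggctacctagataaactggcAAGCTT
Left end of the En2 fragment, chr5:28491937-28491976: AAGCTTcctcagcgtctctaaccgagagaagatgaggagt
Right end of the En2 fragment, chr5:28496543-28496582: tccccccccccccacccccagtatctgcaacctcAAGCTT
Left end of a fragment in a Cnpy1 intron, chr5:28547546-28547585: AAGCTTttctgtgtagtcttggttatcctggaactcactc
Right end of the same fragment, chr5:28547693-28547732: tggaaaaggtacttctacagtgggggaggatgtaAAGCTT
The 30 bases next to the site occurred once in the genome, on either strand, at each of these ends. All 89 fragments had a HindIII site at both ends.

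The En2 promoter could not be followed across tissues, because its only fragment was read in only some libraries. Over all its primer pairs, at any separation, the En2 fragment (28491940–28496579, exon and intron) had 753 reads from limb replicate 1, 12 from limb replicate 2, 773 from body and 0 from both head libraries. A neighbouring intergenic fragment (28506236–28509301) had 181, 0, 256, 0 and 0 reads in the same order. A 181-base fragment in a Cnpy1 intron (28547549–28547729) showed the opposite pattern, with 0 reads in limb replicate 1 and in body, 7138 in limb replicate 2, and 3988 and 2911 in the head libraries. Out of 365 fragments in the whole data set, these 3 were the only ones under 0.5% of the median fragment of their kind in some library and over 3% in another, and all 3 lie in this domain. They carry 96 of the 1480 primer pairs (6.49%). They divide the libraries into limb replicate 1 with body and limb replicate 2 with head, so that each set holds a limb sample and a non-limb sample. Several results below are given again without these fragments. A cause was not tested.

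A single contact far exceeded every other in the domain. It joined the intergenic fragment at 28581219–28585322, between Cnpy1 and Rbm33, to the fragment at 28347366–28348911 in an intron of Gm16719, 236 kb away. It held 3825 and 5672 reads for the limb replicates, 64 for body, and 3368 and 7869 for the head libraries. Expressed as interaction frequency (reads per 1000 reads of the library), this was 5.66 and 3.31 for limb, 0.0606 for body, and 3.21 and 8.45 for the head libraries. Limb and head were thus high and body low, and the head libraries, which share a sample, differed more from each other than the limb replicates did. The 95% Wilson interval, which covers counting error only, was 0.0475 to 0.0774 for body. With the head libraries summed, the contact was 305, 168, 4.30 and 304 times the expected value for its separation for limb replicate 1, limb replicate 2, body and head. It ranked first of the 1480 primer pairs in every sample but body, where it ranked 148. It alone made up 13.2% and 7.66% of the domain's reads for limb, 0.163% for body, and 6.29% and 20.6% for the head libraries.

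The contact stood alone. Among the pairs formed by the 2 neighbouring primers on each side, the most read had 58 and 112 reads for the limb replicates, 78 for body, and 128 and 120 for the head libraries. The other 31 contacts of the fragment between Cnpy1 and Rbm33 averaged 1.35, 1.17, 2.21 and 1.38 times the expected value for limb replicate 1, limb replicate 2, body and head. The other 36 contacts of the Gm16719 fragment averaged 1.08, 0.864, 1.10 and 1.05 times. As interaction frequency, the other contacts of the Gm16719 fragment averaged 0.0208 and 0.0179 for limb, 0.0165 for body and 0.0208 for head, so that body was the lowest before division by the expected value. The longest run of bases that both fragments share was 12 on the same strand and 11 on opposite strands, whereas the runs shared by the first fragment and the other 44 reverse fragments of the domain ranged from 11 to 47 with a median of 15.

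The Shh region held 8 such isolated contacts, defined as a pair at 84 kb or more with 100 reads or over and 20 times as many as its most read neighbour, in 2 libraries or more. These limits were set after the data were seen. The other 7 contacts lay outside the domain or joined it to sequences beyond. All 8 were lowest in body and highest in head library 2, and 6 of the 8 were higher in limb replicate 1 than in limb replicate 2. Together they took 12.7% and 7.40% of all reads for limb, 0.134% for body, and 5.33% and 16.2% for the head libraries. The contact of the domain made up a like share of the reads of these 8 in each library, at 4.45% and 4.47% for limb, 4.51% for body, and 6.03% and 5.23% for the head libraries. The cause was not tested. They were left out of the observed over expected values that follow.

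**Figure D1:**
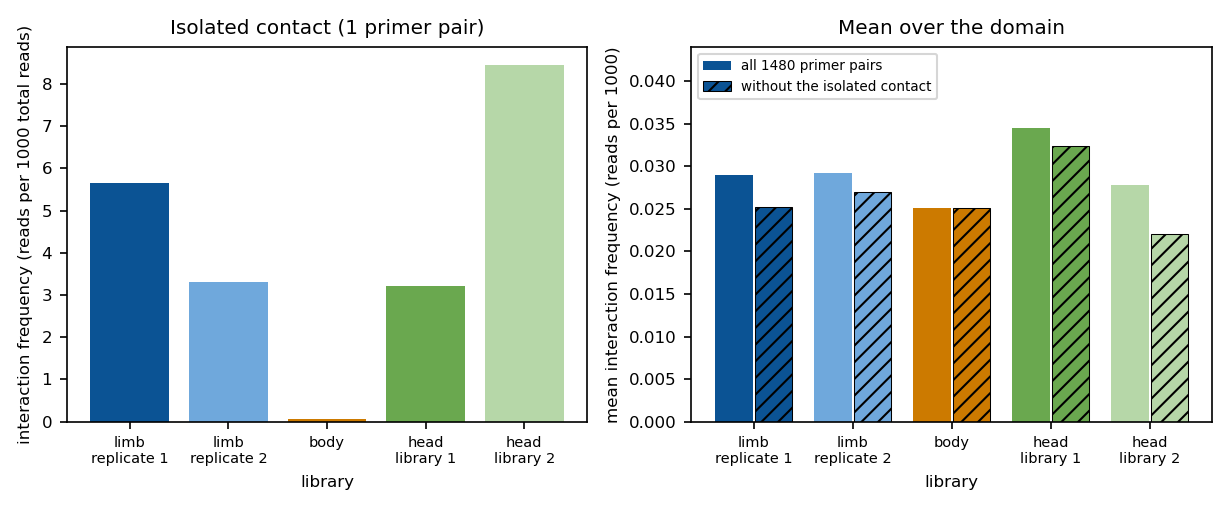
Interaction frequency of the isolated contact (left) and mean interaction frequency over the domain (right) in each library, in reads per 1000 total reads, with solid bars for all 1480 primer pairs and hatched bars without the isolated contact. The contact is at 0.0606 in body and between 3.21 and 8.45 elsewhere, and without it limb replicate 1 (0.0252) and body (0.0251) are alike.

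The first comparison asked whether the domain as a whole was contacted more in limb than in non-limb tissue. The mean interaction frequency over all 1480 primer pairs was 0.0290 for limb replicate 1, 0.0292 for limb replicate 2, 0.0251 for body and 0.0313 for head. Both limb replicates lay between body and head, so the groups overlapped. The log2 ratio of limb (0.0291 ± 0.000155, SD, n = 2) to non-limb was 0.04 (exact permutation test, two-sided, p = 1, where 0.333 is the smallest p that 2 samples against 2 allow). Without the isolated contact the values were 0.0252, 0.0270, 0.0251 and 0.0275, and the log2 ratio turned to -0.01. Within the set of limb replicate 1 and body the log2 ratio fell from 0.20 to 0.003 when the isolated contact was left out, and within the set of limb replicate 2 and head it went from -0.10 to -0.03. The level of body depended on the total it was divided by. Divided by the reads of the Shh region at 56 kb or more, with isolated contacts left out of both, the domain stood at 0.0820 in body, above limb replicate 1 (0.0613), limb replicate 2 (0.0619) and head (0.0627).

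Contact frequency fell with separation in all 4 samples. In the shortest class, 56 to 84 kb (213 primer pairs), the mean interaction frequency was 0.0432 and 0.0479 for limb, 0.0486 for body and 0.0473 for head. By 392 to 420 kb (25 primer pairs) it was 0.00574 and 0.00777 for limb, 0.00701 for body and 0.00909 for head. The slope of log10 frequency on log10 separation was -1.43 and -1.13 for limb, -0.97 for body and -1.16 for head, a difference of -0.21 between limb and non-limb (exact permutation test, two-sided, p = 0.667, smallest possible 0.333). This difference rested on the last separation class, which held 6 primer pairs with 1, 15, 37 and 16 reads for limb replicate 1, limb replicate 2, body and head. The difference also moved with single libraries, to -0.06 without limb replicate 1, -0.36 without limb replicate 2 and -0.48 without head library 1. Without the last class the slopes were -0.79, -0.78, -0.90 and -0.79, and the difference was 0.06.

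**Figure D2:**
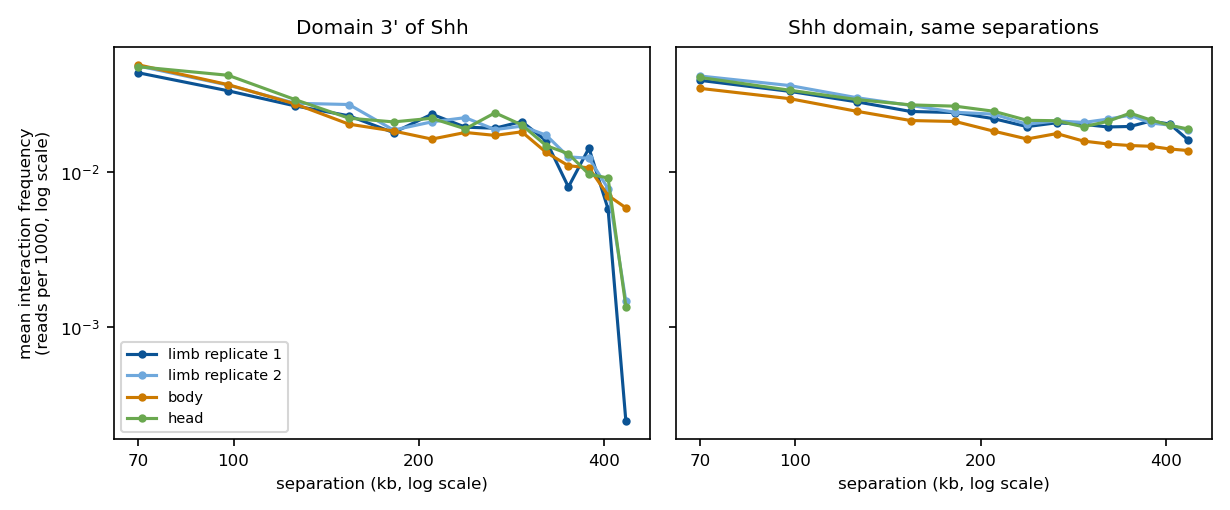
Mean interaction frequency (reads per 1000 total reads, log scale) against separation (kb, log scale) in 28-kb classes for the domain 3′ of Shh (left) and for the Shh domain at the same separations (right), without isolated contacts, with 1 line for each sample. In the domain 3′ of Shh the 4 lines lie close at 56 to 84 kb (0.0432 to 0.0486). They spread at long separations, as at 336 to 364 kb (0.00795 in limb replicate 1 to 0.0130 in head). They lie furthest apart in the last class, which holds 6 primer pairs.

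Against the adjoining Shh domain (28765087–29689086, 7884 primer pairs), the domain 3′ of Shh was lower in all 4 samples as an average over separation classes. This did not hold in each class. At 56 to 84 kb, without isolated contacts, it was higher for limb replicate 1, limb replicate 2, body and head. The values were 0.0432, 0.0479, 0.0486 and 0.0473, against 0.0386, 0.0412, 0.0343 and 0.0403 in the Shh domain. At 392 to 420 kb (25 primer pairs) it was lower, at 0.00574, 0.00777, 0.00701 and 0.00909 against 0.0202, 0.0199, 0.0140 and 0.0198. The little-read fragments at the left end of the domain, given above, enter this class, and their part in the ratio was not tested. The log2 ratio, averaged over separation classes, was -0.94 and -0.64 for limb, -0.18 for body and -0.68 for head, with a mean of -0.61 (exact sign-flip permutation test over 4 samples, two-sided, p = 0.125, the smallest possible, and 0.375 after Benjamini-Hochberg adjustment over the 3 permutation tests made). Body was closest to equality. Without the isolated contacts and the last separation class, the ratios were -0.34, -0.30, -0.10 and -0.30, with a mean of -0.26. Over read primer pairs alone the mean was -0.17 and body stood above 0, at 0.21. The direction also depended on primer totals. When the totals of all primers were balanced, the ratios were 0.29 and 0.14 for limb, 0.61 for body and 0.24 for head, with a mean of 0.32. Balancing gives equal totals also to primers at the end of the region, which have near partners on a single side. The first window of the domain, at that end, rose with balancing. Balancing also left out primers under 10% of the median, so that this window kept 136 of its 267 primer pairs. It went from 0.907, 0.985, 1.38 and 0.966 times the expected value to 2.56, 2.34, 3.80 and 2.51 for limb replicate 1, limb replicate 2, body and head. The part of the region's end and of the left-out primers in this rise and in the balanced ratio was not tested.

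Inside the domain, over the 104 pairs of 28-kb windows, observed over expected (the interaction frequency divided by the mean of all primer pairs of the Shh region at the same separation) had a median of 1.04 in both limb replicates, 1.18 in body and 1.17 in head. It reached 4.06, 3.98, 5.60 and 4.09, and 8, 13, 26 and 16 window pairs were at 2 or above. The Spearman correlation of observed over expected was 0.78 between the limb replicates, 0.76 and 0.81 of each with body, 0.78 and 0.86 of each with head, and 0.79 between body and head. The samples share primers, whose totals enter all of these values, so the correlations are descriptions.

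**Figure D3:**
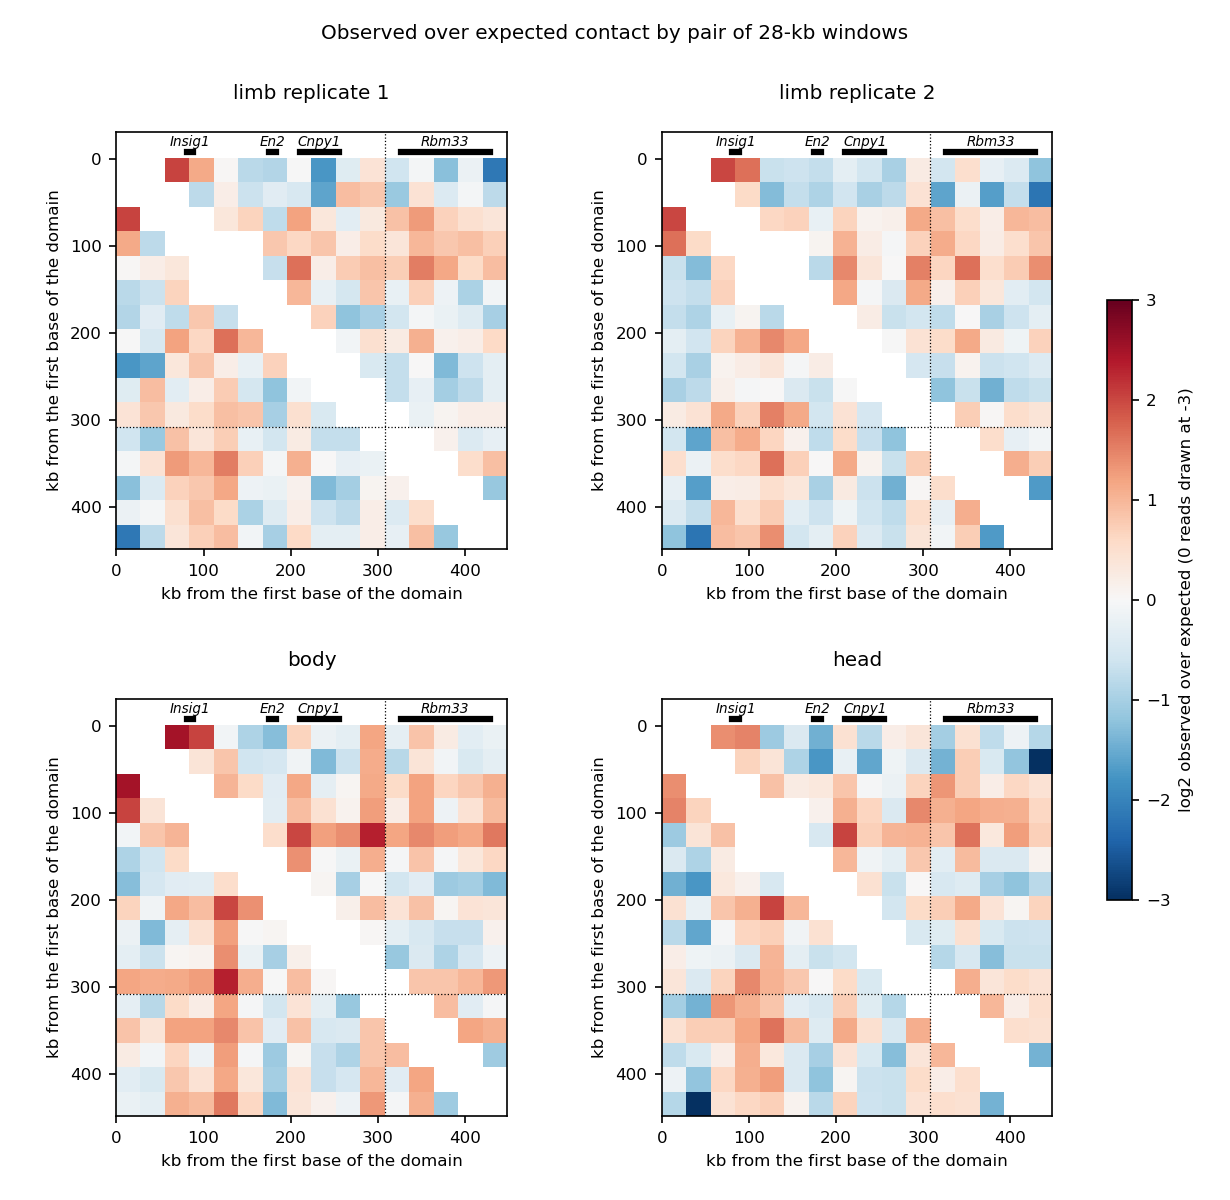
Observed over expected contact (log2 colour scale) for each pair of 28-kb windows in the domain, for limb replicate 1, limb replicate 2, body and head, with both axes in kb from the first base of the domain, genes as black bars, pairs under 56 kb left white and dotted lines at 308 kb. Red cells near Insig1 and the row and column at 112 to 140 kb recur in the 4 maps.

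The highest window pairs were named by their level and are descriptions without a test. The first, between 28317087–28345086 and 28373087–28401086, at the Insig1 end, was at 4.06 and 3.98 times the expected value for limb, 5.60 for body and 2.63 for head, over 5 primer pairs. From head library 2 alone it was 1.01. The intergenic window 28429087–28457086, between Insig1 and En2, took part in 3 of the top 5. With 28513087–28541086, at the 3′ end of Cnpy1, it reached 3.17 and 2.71 for limb, 4.03 for body and 4.09 for head. With 28597087–28625086 it reached 1.87 and 2.85 for limb, 5.03 for body and 2.08 for head, so that body was the highest. With 28653087–28681086, inside Rbm33, it reached 2.91 and 3.16 for limb, 2.72 for body and 3.12 for head. Over all its 110 primer pairs this window stood at 1.73, 1.54, 2.51 and 1.94 times the expected value, the highest of the 16 windows in limb replicate 1, body and head and at rank 3 in limb replicate 2. Balanced primer totals left it at 1.77, 1.54, 2.10 and 1.75, at rank 4 in limb replicate 1 and rank 3 in the other samples. Its highest window pairs fell closer to 1 with balanced totals. The pair with 28513087–28541086 was then at 1.86, 1.74, 1.64 and 1.96, that with 28597087–28625086 at 1.34, 1.91, 1.36 and 1.14, and that with 28653087–28681086 at 1.57, 2.20, 1.06 and 1.03.

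Fragment length and primer totals moved with such levels, and their part in them was not tested. By the mean over the 3 tissues, the most contacted fragment was the 18779-base reverse fragment 28428927–28447705 of that window, the longest of all, with a mean interaction frequency of 0.0536 and 0.0565 for limb, 0.0829 for body and 0.0759 for head. It led in head alone. By the same mean it was followed by 28559901–28566954 (exon and intron of Cnpy1), at 0.0627, 0.0664, 0.0877 and 0.0546, the highest in both limb replicates and in body, and 28537154–28541461 (Cnpy1 intron), at 0.0594, 0.0551, 0.0624 and 0.0742. The 3 lowest, which start at 28336650, 28638809 and 28319935, were nearly unread in all samples, with between 0.0407% and 1.56% of the reads of the median fragment over the Shh region. Over the 89 fragments, longer ones were contacted more, with Spearman correlations of length with mean interaction frequency of 0.36 and 0.29 for limb, 0.47 for body and 0.26 for head, whereas those with GC content were between -0.16 and -0.01.

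The domain was next divided into 4 equal blocks of 112 kb: block 1 holds Insig1, block 2 En2 and the 3′ part of Cnpy1, block 3 the rest of Cnpy1, the intergenic stretch and the first part of Rbm33, and block 4 the rest of Rbm33. Contacts within block 1 were 2.66 and 3.22 times the expected value for limb, 4.23 for body and 2.55 for head. Those within block 2 were at 2.32 and 2.20 for limb, 3.07 for body and 2.76 for head. Within block 1, over 14 primer pairs, the head libraries themselves differed (3.24 and 1.52). Both blocks stood above 1 in every sample and also with balanced primer totals, when block 1 was at 5.02, 4.49, 7.22 and 4.57 and block 2 at 1.79, 1.87, 1.94 and 2.02. Block 1 holds the first window, which rose and lost primer pairs with balancing as given above. By contrast, contacts within block 3 were below expectation, at 0.629 and 0.552 for limb, 0.691 for body and 0.671 for head, the lowest of the 10 block pairs in each sample. This did not hold in full with balanced totals, when block 3 was at 1.09, 0.75, 1.04 and 0.818. Without the 3 fragments read in only some libraries, block 2 was at 2.42, 2.30, 3.21 and 2.88 and block 3 at 0.686, 0.543, 0.752 and 0.682.

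Both limb replicates lay below body and head in 6 of the 10 block pairs by observed over expected, and above them in 0. The block pairs share primers, and no such share was computed for blocks elsewhere in the Shh region. The count therefore describes these 10 pairs and does not set the domain apart. Blocks 3 and 4, which meet inside Rbm33, are an example, at 0.775 and 0.812 for limb, 0.996 for body and 0.975 for head. The count was 4 of 10 with balanced totals and also 4 without the 3 fragments. As interaction frequency without isolated contacts, limb lay below in 1 block pair and above in 1, and blocks 3 and 4 overlapped, at 0.0231 and 0.0261 for limb, 0.0255 for body and 0.0294 for head. The order of the tissues thus depended on division by the expected value of each sample, and 2 samples against 2 cannot give a p under 0.333.

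Contact across each internal window edge was measured between the 3 windows on its left and the 3 on its right. Of the 11 edges, the one at 28625087, between Cnpy1 and Rbm33, was crossed least in all 4 samples, at 0.669 and 0.627 times the expected value for limb, 0.770 for body and 0.768 for head. The edges at 28457087 and 28485087, between Insig1 and En2, were crossed most, at 1.54 to 1.97. This did not hold with balanced primer totals. The edge at 28401087, in Insig1, was then crossed most in all 4 samples, at 2.01 and 2.01 for limb, 3.00 for body and 1.98 for head. The windows on its left include the first window of the domain, which lost primer pairs with balancing. The edge at 28457087 was then at 1.43, 1.36, 1.46 and 1.61. The edge at 28625087 was also the least crossed in every sample by the median over primer pairs, by the mean over read primer pairs, and without the 3 fragments. With balanced primer totals it ranked first in limb replicate 2 and body and second in limb replicate 1 and head, at 0.930, 0.837, 0.875 and 0.979. In that setting it was barely set off from the edges next to it at 28597087 (0.894 to 1.06) and 28653087 (0.917 to 1.16).

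**Figure D4:**
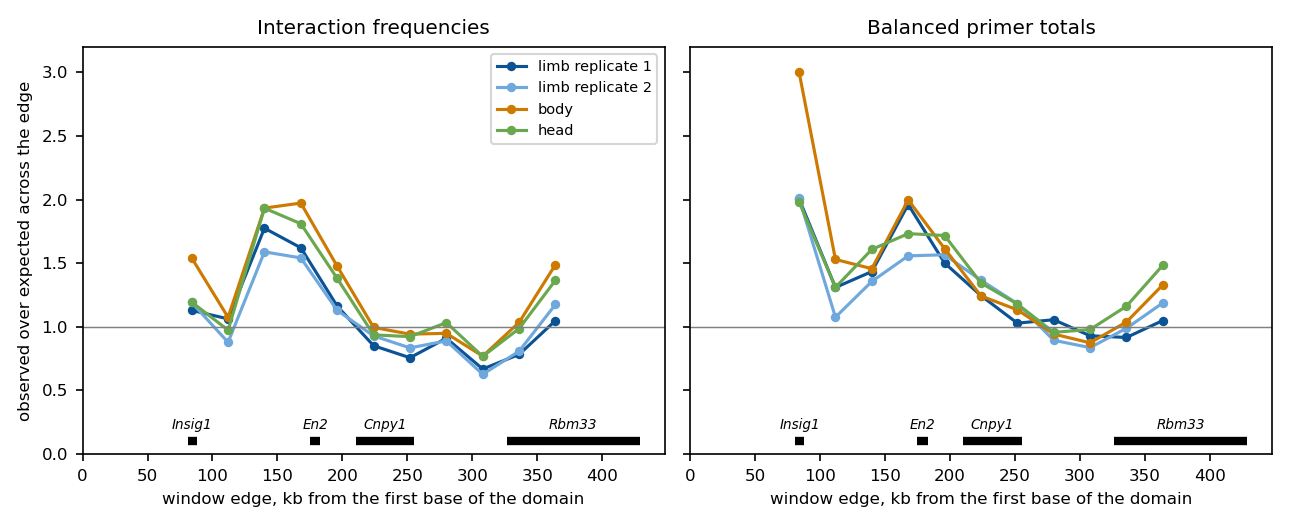
Observed over expected contact between the 3 windows on each side of each of 11 window edges, against the edge's position in kb from the first base of the domain, from interaction frequencies (left) and with balanced primer totals (right), with 1 line for each sample and genes as black bars. The edge at 308 kb, between Cnpy1 and Rbm33, is at 0.627 to 0.770 on the left and at 0.837 to 0.979 on the right.

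Motif letters were counted in each window of the Shh region, since CTCF sites often mark domain edges. A 12-letter core of the CTCF motif, searched on both strands and chosen after the data were seen, occurred 25 times in the 16 windows, in 10 of them (62.5%), against 39 of the 61 windows of the Shh region (63.9%). The window on the left of the edge at 28625087, 28597087–28625086, held 6 matches, the most in the domain, and 1 further window of the region held as many or more. It lies in the intergenic stretch between Cnpy1 and Rbm33. The windows 28625087–28653086, 28653087–28681086 and 28681087–28709086 on the right of the edge held none. The 6 matches are given because their window held the most in the domain. They are printed with 9 bases on each side, 5′ to 3′ on the strand named, with the 12 letters of the pattern in capitals. They are letters in the mm9 sequence, and no binding was measured.
chr5:28597394-28597405, plus strand: aaagggatcCCACAAGCAGGCaaaagcatc
chr5:28602878-28602889, minus strand: taagtcatcCCACCAGTGGGCtcccagcct
chr5:28606855-28606866, plus strand: cacaggcagCCAGGAGGAGGCtctcttctg
chr5:28607356-28607367, minus strand: tcatttacaCCAGAAGAGGGCatcggatcc
chr5:28612117-28612128, plus strand: actacatatCCAATAGAGGGCtaatatcca
chr5:28620728-28620739, plus strand: caacgatgaCCAGCAGGTGGCgccatgagg

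Contacts between the genes were then compared. Insig1 met Cnpy1 (7 primer pairs, 125 to 169 kb apart) at 2.44 and 2.17 times the expected value for limb, 1.95 for body and 1.75 for head. Limb lay above both other tissues, but with balanced totals the values were 2.15, 1.97, 1.61 and 2.29, and the groups overlapped. Insig1 met Rbm33 (14 primer pairs, 243 to 345 kb apart) at 2.47, 2.13, 2.79 and 1.67, and with balanced totals at 2.08, 1.75, 1.83 and 2.12. Both rest on the single fragment of Insig1 (28388373–28403099, 14727 bases), which also overlaps Gm16719. Its contact with the intergenic fragment 28325862–28331585, 71.5 kb away, ranked 2 in the domain by the mean over the 3 tissues, though not in limb replicate 2 or in head, with an interaction frequency of 0.422 and 0.282 for limb, 0.517 for body and 0.213 for head.

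Cnpy1 and Rbm33, the gene pair with the most primer pairs (189, 70.1 to 216 kb apart), met at or just below the expected value, at 0.891 and 0.896 for limb, 0.828 for body and 0.977 for head, at 0.984, 0.909, 0.942 and 0.993 with balanced totals, and at 0.947, 0.920, 0.879 and 0.996 over the 175 primer pairs left without the 3 fragments. Contacts within Rbm33 (43 primer pairs) were at 1.23 and 1.35 for limb, 1.39 for body and 1.39 for head. The last window before the Shh domain (28737087–28765086) was met by Cnpy1 at 1.10 and 0.982 for limb, 1.15 for body and 0.933 for head, and by Rbm33 at 1.01 and 0.954 for limb, 1.19 for body and 1.10 for head. Insig1 met it at 1.84 and 2.50 for limb, 2.93 for body and 1.67 for head, over 3 primer pairs, and at 1.05, 1.41, 1.24 and 1.87 with balanced totals. The head libraries by themselves gave 0.989 and 2.43. Insig1 and En2 both have a forward primer, which leaves no primer pair between them.

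The contacts of En2 are given as reads alone. With Rbm33 (14 primer pairs) it had 39 reads from limb replicate 1 and 14 from body, and 0 from limb replicate 2 and from head. The window of En2, 28485087–28513086, gave 0.741 and 0.701 times the expected value for limb, 0.654 for body and 0.698 for head over its 229 primer pairs. Without the 3 fragments, it gave 0.967, 0.964, 0.874 and 0.960 over 164 primer pairs, and with balanced totals 1.21, 1.47, 1.21 and 1.44, so the low value depended on these fragments and on primer totals.

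**Figure D5:**
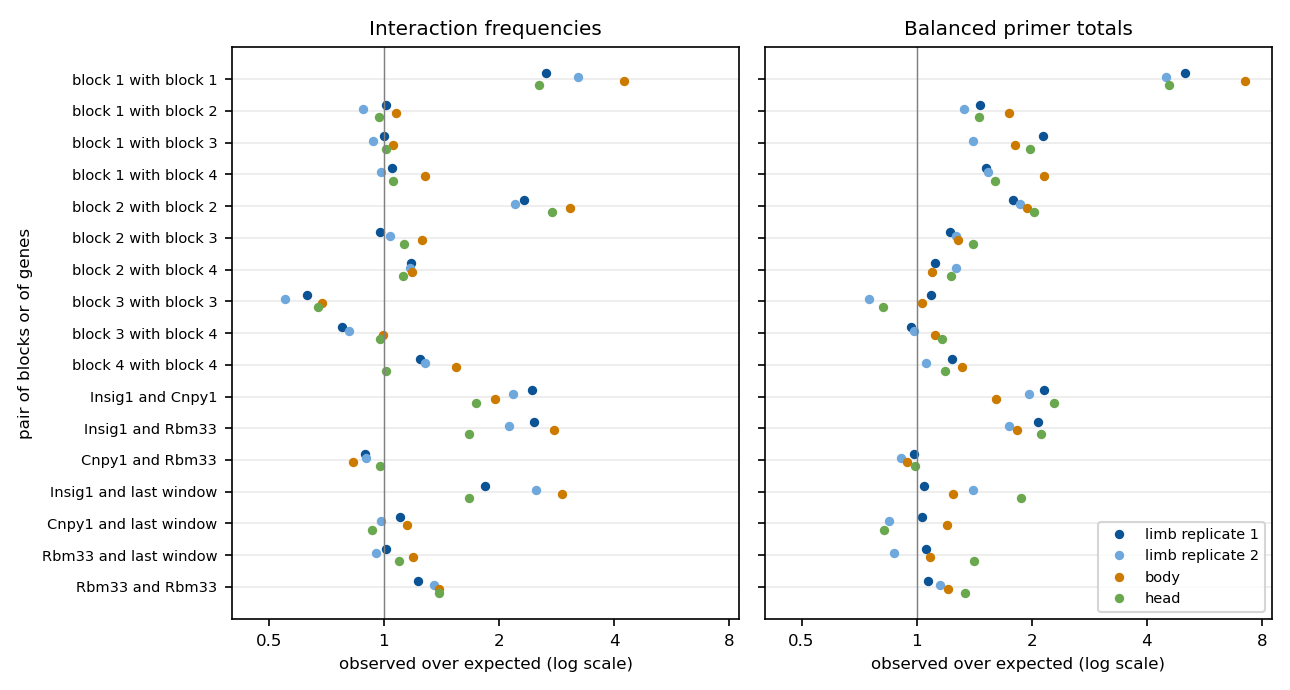
Observed over expected contact (log scale) for the 10 pairs of blocks and the gene pairs with primer pairs, from interaction frequencies (left) and with balanced primer totals (right), with 1 point for each sample. Gene pairs of En2 are left out. Contacts within blocks 1 and 2 and those of Insig1 with Cnpy1 and Rbm33 lie above 1 in every sample in both panels.

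Limb was finally compared with body and head window pair by window pair. Of the 104 window pairs, 0 were called by edgeR's quasi-likelihood test at a Benjamini-Hochberg adjusted p of 0.05, against 0 of 1929 (0%) over the Shh region. DESeq2 called 0 as well. At an unadjusted p under 0.05 DESeq2 gave 0 of the 104, against 60 of 1940 over the Shh region. At an unadjusted p under 0.05 edgeR gave 2 of the 104, against 2.18% of all window pairs. Of the 104, 39 were higher and 65 lower in limb, with a median log2 fold change of -0.12, against -0.02 over all window pairs tested. The smallest adjusted p in the domain was 0.994 by edgeR. The 2 under 0.05 were both lower in limb and lay between Insig1 and Rbm33. The window of En2 with 28597087–28625086 had 145 and 532 reads for limb, 385 for body and 852 for head, which gave a log2 fold change of -0.76 ± 0.34 (SE), and -0.80 ± 0.36 (SE) without the 3 fragments. The window 28429087–28457086 with 28569087–28597086 had 433 and 687 reads for limb, 872 for body and 1538 for head, a log2 fold change of -0.80 ± 0.36 (SE). The window pair of the isolated contact had 4251 and 6018 reads for limb, 235 for body and 11859 for head, a log2 fold change of 0.70 ± 0.98 (SE), with an adjusted p of 0.994 by edgeR. On simulated counts of this design, the test recovered 0%, 63.5% and 97.5% of 200 window pairs with true log2 changes of 1, 2 and 3, so that changes of 2-fold were not detectable.

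Interaction frequencies without isolated contacts were higher in both limb replicates than in body and head in 15 of the 104 window pairs (14.4%), against 23.6% of 1764 window pairs of the Shh region, and lower in both in 17 (16.3%), against 6.86%. Among the lower ones, the window 28429087–28457086 took part in 7 of them, of its 13 window pairs, and in 0 of the higher ones. These window pairs share the few primers of that window and are not separate observations. The window of En2 took part in 5 of the 15 higher ones and in 2 of the lower ones. Without the 3 fragments, 17 were higher and 17 lower, and the window of En2 took part in 5 and 2 of them. No share over the Shh region was computed in that setting, so these 2 counts cannot be set against the rest of the region. As body and head are 1 sample each, these counts describe 4 samples and were not tested.

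Limb was also set against each other tissue alone, a step taken after the data had been seen. Body and head are then 1 sample each, and the spread comes from the 2 limb replicates alone, so the counts are descriptions of these libraries. Against body, edgeR placed 5 of the 104 window pairs under an adjusted p of 0.05, against 6.64% of 1929 over the Shh region, so the share in the domain (4.81%) was no higher than elsewhere. One of them was the window pair of the isolated contact. Without isolated contacts there were 3, against 6.17%. Against head there were 0 of 104 by edgeR with or without the isolated contacts, against 0.103% of 1935 over the Shh region.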

How the data were processed

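The authors prepared 5C libraries from E11.5 tissues, sequenced them on an Ion PGM and deposited raw read counts for each forward-reverse primer pair of each library, with mm9 fragment positions and their separation in bases. Counts of the technical head libraries were summed. Interaction frequency is counts divided by the total deposited counts of the library, times 1000, averaged over primer pairs with unread pairs as 0. Since PCR reads are not independent molecules, intervals would cover counting error only, and 3 reads correspond to 0.00444 in limb replicate 1 and 0.00175 in limb replicate 2. Counts of the limb replicates differed by 14.3 times, and those of the head libraries by 32.9 times, what counting noise gives (chi-square per degree of freedom), so no library was counted as a duplicate.

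Window pairs of 28 kb, counted from 28317087, were tested with the quasi-likelihood test of edgeR 4.0.16 under R 4.3.3, after filterByExpr and with TMM scaling, limb against body with head, and adjusted over the Shh region. The common biological coefficient of variation was 0.387. DESeq2 1.42.0 was an alternative. Labels do not say whether replicates are separate litters, so p-values measure the spread between these samples only. Single values were tested by exact permutation over samples, and levels chosen by rank were not tested. Named items were the 4 genes, the 4 blocks, the 5 highest window pairs and primer pairs, the 5 smallest edgeR p, the 3 highest and lowest fragments, and isolated contacts. Balancing divided forward and reverse primers by their totals in turn, leaving out primers under 10% of the median. The edgeR fit and the measures were tested on simulated data. Members and lists were chosen with earlier results of these data known. The limits for isolated contacts, for primers read in only some libraries, and the comparisons with a single tissue were set after the data were seen, and a second neighbourhood for isolated contacts (same row and column) was tried and kept the contact of the domain. Sequences and genes came from NCBIM37 with GENCODE annotation, read with pysam 0.24.0. Tables were handled in pandas 2.3.3 and numpy 2.4.6 and permutations in scipy 1.17.1, all under Python 3.11.15.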

Additional observations from a re-analysis of the deposited data

How the results depend on the processing

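The 0 window pairs called by edgeR between limb and non-limb stayed at 0 under DESeq2, other windows and grids, other scaling, no filter, each left-out library, and the library sets as a block (2 at an unadjusted p under 0.05). They became 5 with limb against body alone and 3 when isolated contacts were also left out. The log2 ratio of the domain's level, 0.04, ranged from -0.037 to 0.14 as each limb replicate or head library was left out. It turned to -0.33 with Shh-region reads at 56 kb or more as denominator, -0.061 with the median, -0.21 with no smallest separation, -0.014 without isolated contacts, -0.016 when the 3 fragments read in only some libraries were also left out, and -0.23 with isolated contacts also out of the denominator. The difference in slope, -0.21, ranged from -0.48 to -0.060 as libraries were left out and turned to 0.18 over the first 10 separation classes, 0.060 without the longest class and 0.046 when isolated contacts were left out too. The ratio of the domains turned from -0.61 to 0.32 with balanced primer totals and 0.33 when isolated contacts were left out too. The cause was not tested. Of the named observed over expected values, balancing moved 30 of 69 by over 1.5 times, the median 25 of 75, windows in place of gene fragments 8 of 30, and isolated contacts kept 8 of 75. Leaving out limb replicate 1 took 3 limb contacts of En2 to 0, and leaving out limb replicate 2 moved the same 3 of 75. Leaving out head library 1 moved 2 (block 1 and its highest window pair) and head library 2 moved 1 (Insig1 with the last window). No paired analysis was possible because the labels give the groups compared no shared replicate numbers. The block above rests on sets of libraries seen in the data, not on labelled pairs. Over the Shh region, edgeR with that block gave 33 of 1929 window pairs at an unadjusted p under 0.05.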
